A study of Mus musculus with 2 samples.

Results

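Serum response factor, encoded by Srf, and its partner proteins were examined as a group of 6 genes among the 27998 genes of the deposited matrices: Srf, the myocardin-related transcription factors Mkl1 and Mkl2 (named Mrtfa and Mrtfb in newer annotation), and the ternary complex factors Elk1, Elk3 and Elk4. The genes were chosen by name. The study compared iPSCs of the mouse, which are body cells returned to a pluripotent state, of the genotypes SRFΔ/Δ, called knockout here, and SRFf/f, called wild type. The medium of both contained serum. The f/f notation usually stands for alleles flanked by loxP sites, so the wild-type cells may carry these too. Each genotype was profiled as 1 droplet library on the 10x Genomics Chromium platform. Which part of Srf was deleted, whether each line was a single clone, and which end of the transcripts was counted are not given in the sources used here, so the Srf count need not measure the deleted part itself.

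SRF is a DNA-binding protein of the MADS-box family. It sits on a short sequence called the CArG box and needs a partner for most of its activity. The MRTFs carry the actin signal: they bind unpolymerised actin, and when actin filaments grow they are set free, enter the nucleus and switch on cytoskeletal genes with SRF. The ternary complex factors carry the growth factor signal: they belong to the ETS family, bind DNA next to SRF and, once phosphorylated by ERK kinases, switch on immediate early genes such as Fos and Egr1. Srf is itself a known target of both routes. Mouse embryos without SRF do not form mesoderm.

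The values are counts of unique molecular identifiers (UMIs, tags that count each captured RNA molecule once), given as CPM (counts per 1000000 UMIs of the summed cells). Cells passed with 1000 or more genes detected and no more than 10% of UMIs from mitochondrial genes. Passing cells with under 5 UMIs summed over Col1a2, Col3a1 and Acta2 are called kept cells. The knockout library had 975 kept cells of 1073 (21047611 UMIs, median 21456 per cell), and the wild-type library 909 of 954 (23556750 UMIs, median 26537). The last limit set aside 22 cells of the knockout library and 10 of the wild-type library, called left-out cells, with 620496 and 176701 UMIs. They are named knockout or wild-type by library only, and their own genotype was not tested. In kept cells all 12 pluripotency markers of a list were detected, with summed levels of 10424 CPM (knockout) and 13921 CPM (wild type). Dppa5a alone gave 7083 and 10233 CPM of these sums. Of the 12 markers 9 were lower in the knockout library and 3 were higher. A list of 12 fibroblast markers that did not include the limit genes summed to 191 and 223 CPM in kept cells and to 11197 and 10922 CPM in left-out cells. Fn1 alone gave 142 and 166 CPM of the kept-cell sums. A list of 10 primitive endoderm markers, all detected in both libraries, summed in kept cells to 352 CPM (knockout) and 14.5 CPM (wild type). A list of 6 macrophage markers, likewise all detected, summed to 62.1 and 32.1 CPM. The part of these cells in the genotype ratios below was not tested beyond the values given without them. There were 2 cell barcodes present in both libraries. With 1 library per genotype no test between the genotypes was possible. Every interval below is a 95% interval of counting error only, each comparison is between these libraries, and the spread between cultures is unknown.

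Srf was almost undetected in the kept knockout cells. It had 3 UMIs in 3 of 975 knockout cells (0.143 CPM, Poisson interval 0.0294 to 0.417) and 204 UMIs in 172 of 909 wild-type cells (8.66 CPM, interval 7.51 to 9.93). In the wild-type library 144 cells held 1 Srf UMI, 24 held 2 and 4 held 3 UMIs, and each of the 3 knockout cells held 1. As a log2 ratio, knockout over wild type, this is -5.71 (interval conditional on the total, -8.21 to -4.36). It was the lowest ratio among the 11799 genes called tested here, those whose mean over both libraries reached 1 CPM, and the next lowest were Egr1 (-3.85) and Trpm1 (-3.17). Of the tested genes 1.78% had a log2 ratio of -1 or below and 2.98% had a ratio of 1 or above, and the median was 0.07. Srf was the 1 member of the 6 at or below -1, and no member was at or above 1.

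The 3 kept knockout cells with a Srf UMI also carried Pou5f1, the core pluripotency factor. They held 17198, 30141 and 39824 UMIs in all, and 14, 16 and 25 UMIs of Pou5f1. None had a UMI of the 3 limit genes, but kept cells were chosen for few of these, and 909 of the 975 had none. Their fibroblast list held 1, 5 and 12 UMIs, and over all 975 kept knockout cells it held 4014. Among cells thinned at random to 7747 UMIs each, which leaves out 145 shallower knockout and 44 shallower wild-type cells, Srf was held by 1 of 830 in the knockout library (0.120%, Clopper-Pearson interval 0.00305 to 0.669) and by 60 of 865 in the wild-type library (6.94%, interval 5.33 to 8.84). Without thinning these shares were 0.308% (interval 0.0635 to 0.897) and 18.9% (interval 16.4 to 21.6).

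**Figure D1:**
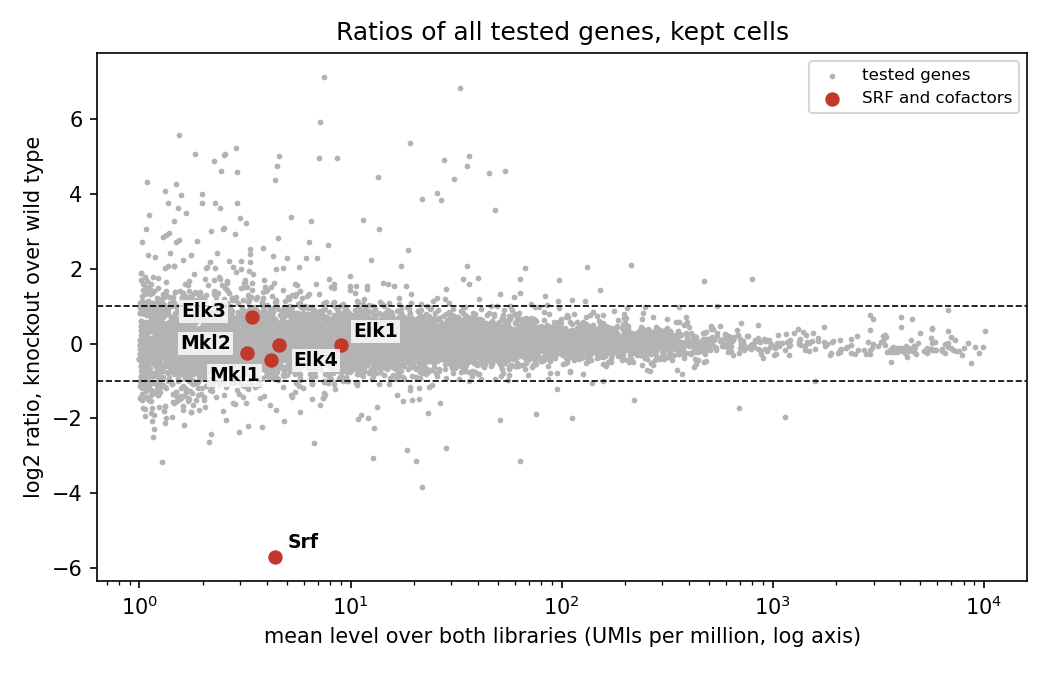
Each point is 1 of the 11799 tested genes, by its mean level over both libraries (CPM, log axis) and its log2 ratio in kept cells, knockout over wild type, and the dashed lines mark ratios of -1 and 1. Srf lies lowest at -5.71 and its 5 cofactors lie between the lines, from -0.45 for Mkl1 to 0.70 for Elk3.

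The genes around Srf did not share its low ratio. Srf is on the minus strand of chromosome 17, 46548329 to 46556175 (GRCm38, GENCODE M21), and 31 other tested genes start within 500 kb of its start. Their log2 ratios ran from -0.60 for Gnmt, a glycine methyltransferase, to 0.77 for Cul9, a cullin whose start is 9.79 kb away, with a median of -0.06. None of the 31 was past a ratio of -1 or 1. Ptk7, a receptor-like kinase on the other side of Srf, with its start at -73.3 kb, had 45 knockout and 57 wild-type UMIs (-0.18, interval -0.78 to 0.41). Gm26904, which overlaps Srf on the other strand, had 0 UMIs in kept cells of each library. The other 5 genes lie on chromosomes 15, 16, X, 10 and 1, and the median log2 ratio of the tested genes of all 6 chromosomes lay between -0.04 and 0.09.

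**Figure D2:**
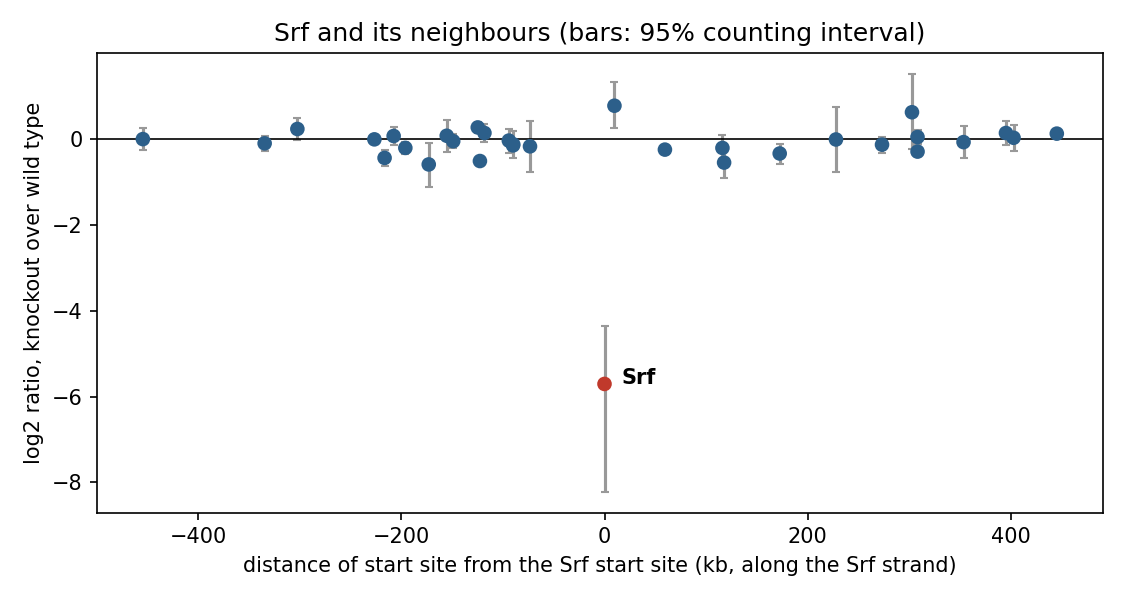
Log2 ratio of knockout over wild type in kept cells for Srf (red) and the 31 tested genes that start within 500 kb of it (blue), by distance along the Srf strand in kb, with 95% counting intervals. Srf lies at -5.71 and its neighbours between -0.60 and 0.77.

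The sequence before the Srf start is shown because Srf counts among the known targets of its own complex. RefSeq's promoter table (GRCm38.p6) held all 6 genes, with 11 start sites, and the 250 bases before each start were searched on both strands for the CArG box and for CCGGAA, a core sequence of ETS factors. The CArG box was in 1.47% of the 32851 windows of all genes, and CCGGAA in 3952 of them. The Srf window held 2 CArG boxes, from -82 to -73 and from -62 to -53 relative to the start, and CCGGAA from -122 to -117, without overlap. In all, 6 windows in the table (0.0183%) held 2 or more CArG boxes. None of the 10 windows of the cofactors held a CArG box, and CCGGAA was in 3 of them, 2 overlapping ones of Mkl2 and 1 of Elk4. Boxes outside these windows were not searched for. Of 9 targets of the ternary complex factor type found in the table, 1 (Egr2) held a box in this window, and Fos did not. For comparison, the boxes of Cnn2, Actg1 and Vcl are printed with 15 bases on either side. They are 3 of the 7 MRTF-type targets with a box in this window, among 24 found in the promoter table, and were chosen with their values known. Actb, Ctgf and Tagln of that list were not found in the promoter table. Capitals mark CArG boxes, and in Srf also CCGGAA. The Srf stretch is chr17:46556163-46556412 on the minus strand, Cnn2 is chr10:79988529-79988568 on the plus strand, Actg1 is chr11:120348561-120348600 on the minus strand and Vcl is chr14:20929156-20929195 on the plus strand.
Srf: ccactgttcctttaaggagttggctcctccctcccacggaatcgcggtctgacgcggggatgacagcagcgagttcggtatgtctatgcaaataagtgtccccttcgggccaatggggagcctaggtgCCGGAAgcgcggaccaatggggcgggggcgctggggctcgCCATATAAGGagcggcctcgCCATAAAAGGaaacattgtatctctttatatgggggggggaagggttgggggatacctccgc
Cnn2: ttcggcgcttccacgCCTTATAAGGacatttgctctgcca
Actg1: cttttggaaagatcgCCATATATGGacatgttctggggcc
Vcl: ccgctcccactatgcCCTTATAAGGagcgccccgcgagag
Cnn2 (calponin 2), which carries the same 10 bases as Vcl, had 36.8 CPM in wild-type and 4.13 CPM in knockout kept cells. Actg1 (cytoplasmic gamma-actin) had 1818 and 467 CPM, and Vcl (vinculin, which ties actin to adhesions) had 11.9 and 7.84 CPM. All 3 were lower in the knockout library, but a box did not go with a lower level in every target. Of the other 4 with a box, Fhl1 had 15.6 CPM in wild type and 17.1 CPM in knockout (log2 ratio 0.13), Myl9 had 1.78 and 0.665 CPM (-1.39), and Fhl2 and Filip1l were under 1 CPM in each. Targets without a box varied too: Cyr61 (log2 ratio -1.50) and Wdr1 (-1.15) were lower, while Actn1 (0.03) and Itga5 (0.58) were not. A match describes these letters and is not a measured binding site.

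Neither MRTF passed the limit of 1 on the log2 scale. The interval of Mkl1 lay just below 0 and that of Mkl2 held 0. Mkl1 is on the minus strand of chromosome 15, 81012281 to 81190757, and Mkl2 on the plus strand of chromosome 16, 13256481 to 13417529. Mkl1 had 75 UMIs in 71 knockout cells (3.56 CPM, interval 2.80 to 4.47) and 115 UMIs in 103 wild-type cells (4.88 CPM, interval 4.03 to 5.86), a log2 ratio of -0.45 (interval -0.89 to -0.02). Mkl2 had 62 UMIs in 60 knockout cells (2.95 CPM) and 83 UMIs in 77 wild-type cells (3.52 CPM), a ratio of -0.26 (interval -0.76 to 0.23). Their summed UMIs, 137 and 198, gave a ratio of -0.37 (interval -0.69 to -0.05). No knockout or wild-type kept cell held more than 2 UMIs of either gene. Both ratios were smaller without the 244 knockout and 16 wild-type cells under 1% mitochondrial UMIs, with -0.29 (interval -0.73 to 0.15) for Mkl1 and -0.09 (interval -0.60 to 0.40) for Mkl2. Beyond these values the part of the mitochondrial share was not tested. In thinned cells Mkl1 was in 3.01% of cells from the knockout library (25 of 830) and in 2.89% from the wild-type one (25 of 865). The third relative, Myocd (myocardin, the heart and smooth muscle partner of SRF), had 0 UMIs in kept cells of each library, which allows up to 0.143 CPM (knockout) and 0.127 CPM (wild type).

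Of the ternary complex factors, Elk1 and Elk4 had ratios near 0 and Elk3 was higher in the knockout library. Elk1 is on the minus strand of chromosome X, 20933395 to 20950608, Elk3 on the minus strand of chromosome 10, 93247414 to 93311135, and Elk4 on the plus strand of chromosome 1, 132007607 to 132032612. Elk1, the classical ERK target that binds beside SRF, had 186 UMIs in 158 knockout cells (8.84 CPM, interval 7.61 to 10.2) and 215 UMIs in 179 wild-type cells (9.13 CPM, interval 7.95 to 10.4), a log2 ratio of -0.05 (interval -0.34 to 0.24). Elk4, a close relative of Elk1 that also binds beside SRF, had 95 UMIs in 88 knockout cells (4.51 CPM) and 110 UMIs in 101 wild-type cells (4.67 CPM), a ratio of -0.05 (interval -0.46 to 0.36). As folds, the intervals ran from 0.791 to 1.18 for Elk1 and from 0.727 to 1.28 for Elk4, and differences within them were not detectable at this depth.

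Elk3, known as a repressor until it is phosphorylated, had 89 UMIs in 75 knockout cells (4.23 CPM, interval 3.40 to 5.20) and 61 UMIs in 50 wild-type cells (2.59 CPM, interval 1.98 to 3.33), a log2 ratio of 0.70 (interval 0.22 to 1.20). That ratio lay at percentile 93.8 of the tested genes. Elk3 is also the member with the most uneven spread over cells. In the wild-type library 2 cells held 5 UMIs each, 10 of the 61, and had 8 and 1 UMIs of Pou5f1. In the knockout library 3 cells held 3 UMIs each, and 1 of them had 302 UMIs of the macrophage list and none of Pou5f1. The 5 knockout and 7 wild-type kept cells with at least 5 macrophage-list UMIs held 6 and 7 Elk3 UMIs. Without them the ratio was 0.77 (interval 0.26 to 1.29), and without the kept cells that had 20 or more fibroblast-list UMIs it was 0.75. With at most 5% mitochondrial UMIs the ratio was 0.53, with an interval that held 0 (-0.04 to 1.10), and without the cells under 1% it was 0.99 (interval 0.49 to 1.51). In cells thinned to 7747 UMIs, Elk3 was in 2.89% (knockout) and 1.50% (wild type). In the shallowest 325 knockout and 303 wild-type cells the Elk3 ratio was 0.07 (interval -1.29 to 1.32). In the middle cells it was 0.82 (interval -0.07 to 1.78) and in the deepest 0.83 (interval 0.15 to 1.55). Summed over Elk1, Elk3 and Elk4 the level was 17.6 CPM (knockout) and 16.4 CPM (wild type) (ratio 0.10, interval -0.11 to 0.31).

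Some counts may be shared with overlapping genes, since the rule for such reads is not given in the sources used here. Uxt overlaps Elk1 on the same strand and had 847 knockout and 1031 wild-type UMIs. Sgsm3 overlaps Mkl1, Cdk17 overlaps Elk3 and Mfsd4a overlaps Elk4, all on the other strand, with 174, 166 and 35 knockout and 160, 201 and 15 wild-type UMIs.

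**Figure D3:**
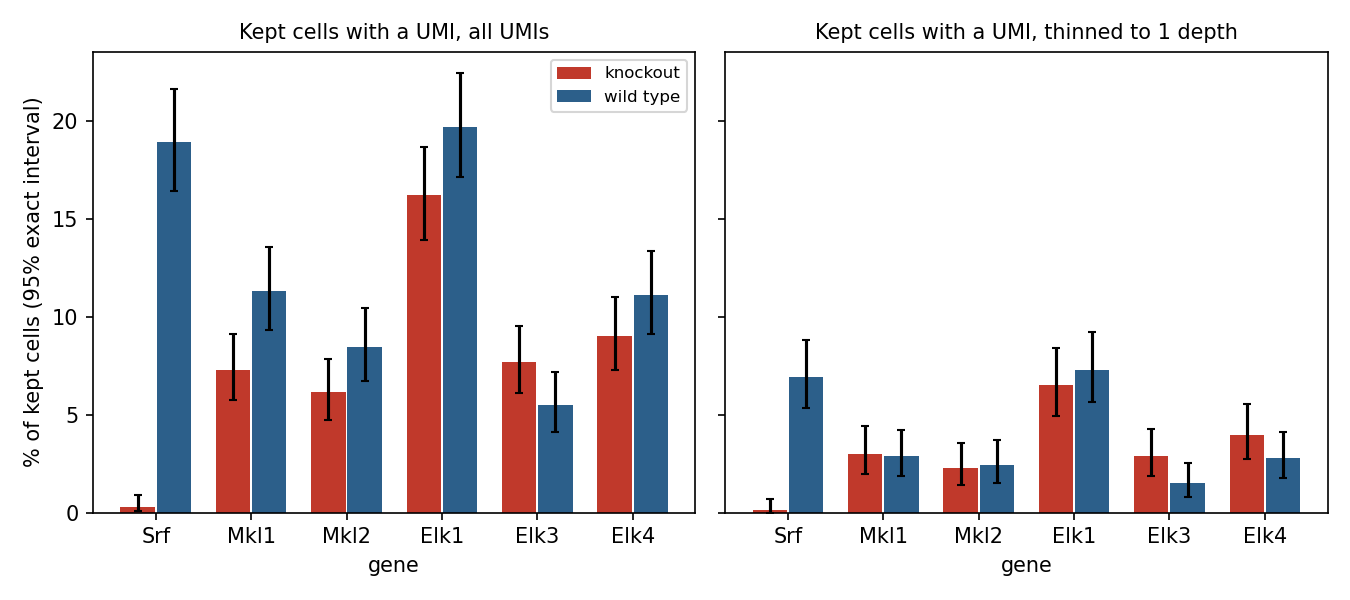
Share of kept cells with at least 1 UMI of each gene (percent, with 95% exact binomial intervals), with all UMIs on the left and after thinning to 7747 UMIs per cell on the right. With all UMIs Srf is at 18.9% in wild type and 0.308% in knockout, and the intervals of each cofactor overlap between the genotypes after thinning.

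The left-out cells carried Srf in both libraries. Whether these cells had the genotype of the library they came from was not tested. In the knockout library 5 of 22 left-out cells held 14 Srf UMIs (22.6 CPM, interval 12.3 to 37.9), 158 times the level of kept cells (interval 44.2 to 859). A single cell of 109504 UMIs, the deepest of its library, held 10 of the 14. Without it the level was 7.83 CPM, 54.9 times that of kept cells (interval 9.29 to 375). The other 4 cells held 1 Srf UMI each, and all 5 held at least 48 UMIs of the limit genes and at most 2 of Pou5f1. In the wild-type library 3 of 10 left-out cells held 3 Srf UMIs (17.0 CPM, interval 3.50 to 49.6), 1.96 times the level of kept cells (interval 0.401 to 5.81). Between the left-out cells of the libraries the Srf intervals overlapped, with a log2 ratio of 0.24 (interval -1.43 to 2.85), and without the deepest cell of each library this ratio was -0.93 (interval -3.58 to 2.69).

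Srf UMIs in the knockout library lay mostly in cells with many UMIs of the limit genes. The 909 passing cells with 0 UMIs of those genes held 3 Srf UMIs, the 66 cells with 1 to 4 held 0, the 6 cells with 5 to 19 held 0, and the 16 cells with 20 or more held all 14 others (27.5 CPM). In the wild-type library the cells with 0 and with 1 to 4 of these UMIs had 8.65 and 9.13 CPM of Srf. In the cells below the gene or mitochondrial limits Srf had 0 UMIs of 609889 in the knockout library, which allows up to 4.92 CPM, and 2 of 272398 in the wild-type library (7.34 CPM).

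The cofactors differed in how strongly they marked the left-out cells. Elk3 was far above its kept-cell level in both libraries, with 44 UMIs in 14 of 22 knockout cells (70.9 CPM, log2 ratio of left-out over kept 4.08, interval 3.51 to 4.60) and 11 UMIs in 6 of 10 wild-type cells (62.3 CPM, ratio 4.64, interval 3.51 to 5.53). Mkl1 had 23 UMIs in 8 knockout left-out cells (37.1 CPM, ratio 3.40, interval 2.64 to 4.07) and 1 UMI in the wild-type ones (5.66 CPM). Mkl2 had 9 UMIs in 7 knockout left-out cells (14.5 CPM, ratio 2.37, interval 1.11 to 3.32) and 1 in wild type. Elk1 and Elk4 had 8 and 4 UMIs in knockout left-out cells (ratios 0.63 and 0.68), with intervals that held 0. In wild-type left-out cells Elk1 had 1 UMI and Elk4 had 4 (22.6 CPM, ratio 2.44, interval 0.38 to 3.67). The deepest knockout cell held 9 of the 23 Mkl1, 5 of the 8 Elk1 and 8 of the 44 Elk3 UMIs, and without it the ratios were 2.98 for Mkl1, -0.37 for Elk1 and 4.07 for Elk3. Without the deepest wild-type left-out cell the Elk4 ratio was 2.32, with an interval that held 0 (-0.19 to 3.69). The left-out cells were not all alike. Of the wild-type ones, 1 had 5 limit-gene, 9 fibroblast-list and 18 Pou5f1 UMIs, and it held the 1 Mkl1 UMI. Of the knockout ones, 1 had 165 macrophage-list and 0 fibroblast-list UMIs and held no member.

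The order of the levels over the 4 sets of cells differed by gene. For Srf it was knockout kept, wild-type kept, wild-type left-out and knockout left-out cells, and the intervals of the last 2 sets overlapped each other, while that of wild-type left-out cells also overlapped that of wild-type kept cells. This order rests on the deepest knockout left-out cell: without the deepest left-out cell of each library, knockout left-out cells were at 7.83 CPM, below wild-type kept (8.66 CPM) and wild-type left-out cells (13.4 CPM). For Elk3 both left-out sets lay above both kept sets, without overlap of the intervals between left-out and kept. For Mkl1 knockout left-out cells lay above both kept sets, and the wild-type left-out interval (0.143 to 31.5 CPM) spanned them. For Mkl2, Elk1 and Elk4 the widest intervals were those of the wild-type left-out cells, which hold the fewest UMIs.

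**Figure D4:**
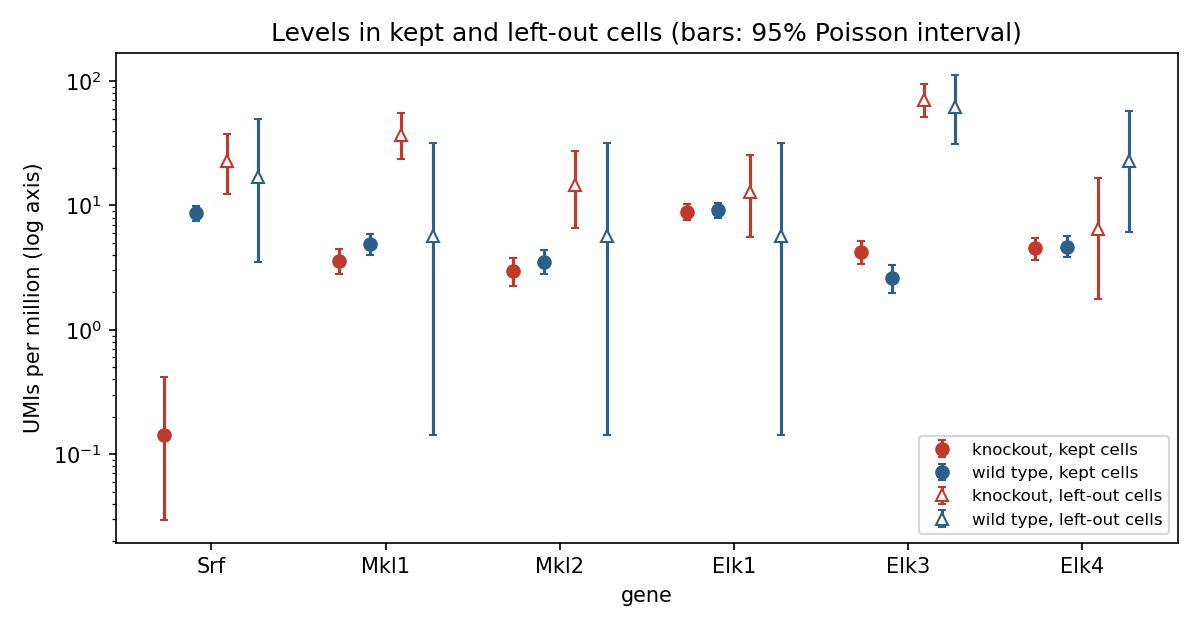
Level of each gene in CPM (log axis) in kept cells (filled circles) and left-out cells (open triangles) of the knockout (red) and wild-type (blue) libraries, with 95% Poisson intervals. In the knockout library Srf is at 0.143 CPM in kept and at 22.6 CPM in left-out cells, and Elk3 is above 60 CPM in both sets of left-out cells. The genotype of the left-out cells themselves was not tested.

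Within kept knockout cells Mkl1, Mkl2 and Elk3 were lower in cells with little mitochondrial RNA, while the intervals of Elk1 and Elk4 held 0. The 244 cells under 1% mitochondrial UMIs had a median depth of 8632 UMIs, against 24423 in the other 731. In them Mkl1 had 2 UMIs (0.703 CPM, against 4.01 CPM in the others, log2 ratio -2.20, interval -5.58 to -0.61), Mkl2 had 2 (0.703 against 3.30 CPM, ratio -1.92, interval -5.31 to -0.31) and Elk3 had 3 (1.05 against 4.72 CPM, ratio -1.95, interval -4.47 to -0.57). Elk1, with 20 UMIs, was at 7.03 against 9.12 CPM (interval -1.12 to 0.30), and Elk4, with 7, at 2.46 against 4.83 CPM (interval -2.33 to 0.13). Srf had no UMI in these cells. The wild-type library had 16 such cells. They held 6 Elk3 UMIs, 5 of them in 1 cell of 58626 UMIs (20.98 CPM, against 2.36 CPM in the other wild-type cells), so the direction for Elk3 was opposite there. They also held 2 Srf UMIs and 1 each of Mkl1, Mkl2, Elk1 and Elk4. Depth moved with the mitochondrial share, and its part was not tested.

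Cells that carried primitive endoderm genes held the cofactors at levels within counting error of the other knockout cells. There were 103 kept knockout cells with at least 5 UMIs summed over 6 endoderm genes (Gata6, Gata4, Sox17, Sox7, Pdgfra and Foxa2), and 1 such wild-type cell. The median depth of the 103 cells was 24219 UMIs, and of the others 21158. In the 103 cells Mkl1 was at 4.34 CPM (3.46 in the other 872 cells), Mkl2 at 2.76 (2.97), Elk1 at 8.67 (8.86), Elk3 at 2.37 (4.48) and Elk4 at 5.12 (4.43), and the interval of each ratio held 0. Srf had 0 UMIs of 2536699, which allows up to 1.18 CPM. With these cells left out the genotype ratios were -5.52 for Srf, -0.50 for Mkl1 and 0.79 for Elk3.

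In wild-type cells the intervals of Srf ratios held 0 for depth (shallowest over deepest), mitotic genes and the RNA of its own targets. The shallowest, middle and deepest 303 wild-type cells had 8.52, 9.01 and 8.47 CPM of Srf. Cells whose share of UMIs from 10 mitotic genes was above the pooled median had 8.81 CPM, and the others 8.52 CPM. The 696 cells with a UMI of Fos or Egr1 had 8.15 CPM and the 213 cells without had 10.6 CPM (log2 ratio -0.39, interval -0.85 to 0.10). As a fold this interval ran from 0.555 to 1.07. The 696 cells were deeper (median 27058.5 against 21769 UMIs), and the part of depth was not tested. Cells whose Actb and Actg1 share was above the library's median had 8.16 CPM, and the others 9.04 CPM (ratio -0.14, interval -0.57 to 0.27). Elk1 was lower in the cells with more actin, with 7.29 against 10.6 CPM (ratio -0.53, interval -0.96 to -0.12), while in the knockout library the same split gave a ratio of -0.24 (interval -0.69 to 0.19). These splits by actin share, by Fos or Egr1 and by mitotic share gave 36 ratios over the 6 genes and both libraries, and 2 of the 36 intervals missed 0. The other was for Elk4 by actin share in the knockout library (3.11 against 5.56 CPM, ratio -0.82, interval -1.53 to -0.18). Among 36 intervals a few can miss 0 from counting error alone. Whether the Elk1 and Elk4 differences went beyond this was not tested. The cells with more actin were shallower in both libraries, with medians of 22715 against 28483 UMIs in wild type and 16746 against 24173 in knockout, and the part of depth was not tested. The Mkl1 genotype ratio was uneven over depth. In the shallowest 325 knockout and 303 wild-type cells it was -2.28 (2 and 17 UMIs, interval -5.71 to -0.48), in the middle cells 0.09 (interval -0.59 to 0.76) and in the deepest -0.67 (interval -1.33 to -0.05). The shallowest knockout cells had a median mitochondrial share of 0.584%, against 4.68% in the middle knockout cells, and the part of this was not tested.

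Apart from Elk3, the variance of the counts over cells was close to that of random sampling at each cell's depth. For Srf in wild-type cells 172 cells held a UMI where Poisson sampling at each cell's total gives 180, and 28 held 2 or more where it gives 22.2. The variance over that of sampling was 1.09 for Srf and between 0.99 and 1.11 for Mkl1, Mkl2, Elk1 and Elk4 in both libraries. For Elk3 it was 1.25 (knockout) and 1.67 (wild type). The counting intervals assume random sampling, so those of Elk3 may be too narrow. At so few UMIs per cell the variance over that of sampling can hardly show differences between groups of cells. Knockout Mkl1 and Mkl2 had 1.01 and 0.99, though both genes were lower in knockout cells under 1% mitochondrial UMIs. Most cells showed few members: of the 909 wild-type cells 508 had no UMI of any cofactor, 306 had UMIs of 1, 81 of 2 and 14 of 3. In the knockout library 629 had none, 261 had UMIs of 1, 64 of 2 and 21 of 3. Srf was found together with Elk1 in 31 wild-type cells, where independent sampling gives 42.4, and with Mkl1 in 20, where it gives 24.3. With Mkl2 it was in 18 (17.9 by such sampling), with Elk3 in 13 (13.4) and with Elk4 in 21 (23.3). At these counts the absence of a UMI says little about a single cell.

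Genes that act on the cofactors were counted by the same limits, which 1.78% (lower) and 2.98% (higher) of all tested genes passed, and the counts below are near those shares. Of 30 genes of the route through actin to the MRTFs, 27 were tested, 1 was at a log2 ratio of -1 or below, none was at 1 or above, and the median was 0.16 against 0.07 over all tested genes. The lowest was Phactr2, an actin-binding phosphatase regulator (12 knockout and 37 wild-type UMIs, -1.42, interval -2.54 to -0.49), and the highest was Ssh2, a cofilin phosphatase (125 and 73 UMIs, 0.93, interval 0.51 to 1.38). Scai, which binds and represses MRTF, was at 3.94 and 5.18 CPM (-0.39, interval -0.81 to 0.02). A second list of 30 genes held the Ras to ERK route, other kinases and phosphatases that act on the ternary complex factors, and their coactivators and corepressors. All 30 were tested, none was at -1 or below, 1 was at 1 or above, and the median was -0.01. That gene was Dusp4, an ERK phosphatase (12.3 and 4.37 CPM, 1.48, interval 1.15 to 1.83). The lowest was Rps6ka2, a kinase activated by ERK (-0.47).

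The targets of the cofactors were compared by the same limits. Of all tested genes 1.78% passed the lower and 2.98% the higher limit, and the median was 0.07. The target lists were chosen with earlier results of these data known, so their counts are not independent support. Of 25 tested genes of the MRTF type, 7 were at -1 or below and 1 at 1 or above, with a median of -0.35. The lowest was Cnn2 (-3.15), and the highest was Acta2 (smooth muscle actin, 50 and 10 UMIs, 2.43), which is 1 of the genes that set the limit on kept cells. Of the 7, Tagln (transgelin, 53 knockout and 212 wild-type UMIs, -1.83) and Myl9 (a myosin light chain, 14 and 42 UMIs, -1.39) are also on the fibroblast list, and in left-out cells they were at 2677 and 738 CPM (knockout) and 1737 and 357 CPM (wild type). The fibroblast list itself had 3 of 9 tested genes at -1 or below, none at 1 or above and a median of -0.35, and its part in the count of MRTF-type targets was not tested. Of 10 tested genes of the ternary complex factor type, 3 were at -1 or below and none at 1 or above, with a median of -0.36. These were Egr1 (-3.85), Fos (-3.14) and Fosb (-1.16), and the highest was Ier2 (0.00). Cfl1, Pfn1, Flna and Fhl2 are in both the MRTF route and target lists, and Dusp1 in both lists of the other route.

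Relatives of the members outside the SRF complex were counted in the same way. Of 16 tested genes among 23 other ETS genes, none was at -1 or below and 2 were at 1 or above, Ets1 (57 knockout and 9 wild-type UMIs, 2.76, interval 1.80 to 4.03) and Etv2 (1.11, interval 0.87 to 1.36). Over all tested genes 2.98% were at 1 or above. Of the 16, 12 were above 0, against 58.4% of all tested genes (47.9% when libraries are scaled by the median of ratios), and the median was 0.27. The lowest was Elf3, an epithelial ETS factor (-0.77, interval -0.96 to -0.58). Among the other MADS-box genes Mef2a was at 6.60 and 4.46 CPM (0.57, interval 0.19 to 0.95) and Mef2d at 12.1 and 10.8 CPM (0.16, interval -0.09 to 0.42). Mef2c had 14 and 13 UMIs, and Mef2b had 0 in each library.

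The genes whose pattern was most like that of Srf were sought among 8302 genes with at least 5 CPM in wild-type kept cells. Likeness was the distance between centred log2(CPM + 1) values over the 4 sets of cells, a description of 4 points that share their libraries. The added 1 CPM narrows differences at low levels, such as that of Srf in knockout kept cells (0.143 CPM). Its effect on the distances was not tested. The 5 nearest were Grb10 (distance 0.52), Actb (1.01), Actg1 (1.25), Fos (1.30) and S100a13, a calcium-binding protein (1.47). The Srf levels used rest on 14 (knockout) and 3 (wild-type) UMIs in left-out cells, and 1 knockout cell held 10 of the 14. Without that cell the knockout left-out level of Srf was 7.83 CPM, and the distances were not recomputed. Grb10, an adaptor of the insulin receptor, had 4.51 CPM in knockout kept, 32.7 CPM in wild-type kept, 129 CPM in knockout left-out and 67.9 CPM in wild-type left-out cells. Actb had 321, 1068, 3160 and 2994 CPM in the same order, and Fos had 13.0, 114, 259 and 594 CPM. The distances of the cofactors ran from 2.52 for Mkl2 to 3.47 for Elk1, but Elk1 alone of the 5 reaches 5 CPM in wild-type kept cells, so the other 4 were not among the genes searched.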

How the data were processed

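The deposited files are whole-number UMI counts per gene and cell, not normalised, per the file headers. The submitters' processing notes name Cell Ranger 2.0.0, Seurat 3.1.1 and the build mm10, without roles. The annotation, the rule for calling cells and the counting of overlapping genes are not given in the sources used here. Nothing pairs or replicates the libraries. Doublets were not called, and kept cells include any. Counts were summed over kept cells and scaled to CPM, and log2 ratios had 0.5 UMIs added to each sum. Intervals are exact at 95% (Poisson, conditional binomial or Clopper-Pearson, scipy 1.17.1) and cover counting error only. A count of 0 was given the upper limit of 3 counts over that total. Genes whose mean reached 1 CPM were called tested, and a log2 ratio of 1 in size was the limit for calls. Named genes were the members, the lowest and highest of each list, and the 5 genes nearest to Srf; other genes named were picked for their role or after their values were seen. The members and lists were chosen with earlier results of these data known. Alternatives covered cell limits, scaling (TMM from edgeR 4.0.16 among them), weighting and thinning. Scripts were tested on simulated data. Promoter sequences are from RefSeq (GRCm38.p6), and positions from GENCODE M21 (GRCm38).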

Additional observations from a re-analysis of the deposited data

How the results depend on the processing

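No paired analysis was possible because the comparison holds 1 library per genotype. Each member's log2 ratio was recomputed under 18 alternatives, and a value was taken as moved when it left the counting interval of the reported value. Leaving out cells by macrophage or fibroblast markers, or the deepest left-out cell, was chosen after seeing the data. The ratio of Srf stayed between -5.94 and -5.34 except with the left-out cells kept in, where it was -3.44; those cells hold 14 of the 17 Srf UMIs then counted. In thinned cells Elk4 moved from -0.05 to 0.55 (34 and 24 UMIs). Mkl1 kept its sign in all 18, from -0.74 to -0.05, and its interval held 0 in 4 of the 17 with an interval: a gene minimum above that used (-0.43), 1% to 10% mitochondrial UMIs (-0.29), left-out cells kept in (-0.11) and thinning (-0.05). Elk3 ranged from 0.53 to 1.03. Mkl2 (-0.46 to -0.08) and Elk1 (-0.31 to -0.01) stayed below 0, with intervals that held 0. The Srf level of left-out over kept cells ranged from 54.9 to 231 times in the knockout library over 8 alternatives. In the wild-type library it reached 2.31 times, and it was 0 with at most 5% mitochondrial UMIs, which leaves 0 Srf UMIs in left-out cells. The causes of other moves were not tested. Depth limits the cofactor ratios, since each cofactor had 61 to 215 UMIs per library in kept cells.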
